A study of Mus musculus with 8 samples.

Results

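The 10 genes described here are Lef1, Tcf7, Tcf7l1 and Tcf7l2, the DNA-binding factors of the Wnt pathway, and Axin2, Nkd1, Notum, Sp5, Rnf43 and Znrf3, genes that Wnt signalling switches on and that damp it in return. They were chosen by name from the 53507 gene rows of the files, and all 10 had a row. Of these, 9 passed the low-count filter of the test, and Rnf43 did not. RNA had been sequenced from tdTomato-positive mouse brain cells, which the labels call progenitor cells, in a study of the neonatal brain after injury. tdTomato is a red fluorescent protein used to sort cells.

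The 8 libraries formed 4 groups of 2. P12 hypoxia pups had breathed 10% oxygen for 8 days, from postnatal day 3 (P3) to P11, and their cells were taken at P12. P12 normoxia pups were kept in normal air to the same age. Mothers of the hypoxic and control litters were exchanged at P6 and P9. E15 and E13 cells came from embryonic days 15 and 13, whose treatment the labels give as wt. The labels name neither the driver of the reporter nor a mouse line, and they do not say whether the libraries of a group came from separate animals. The p-values therefore measure only the spread between libraries, which may be technical.

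In canonical Wnt signalling, a Wnt ligand binds a Frizzled receptor together with Lrp5 or Lrp6 and stops the destruction complex of Axin, APC and GSK3 from marking beta-catenin for degradation. Beta-catenin then enters the nucleus, binds a TCF or LEF factor and turns target genes on. Without beta-catenin the same factors, Tcf7l1 above all, keep targets off. The pathway expands cortical progenitors in the embryo, and Tcf7l2 is known from oligodendrocyte precursors that start to differentiate, from astrocytes and from thalamic neurons.

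Promoter windows from RefSeq (GRCm38.p6, 250 bases before to 50 after a gene's start) were found for 8 of the 10 genes, 14 windows in all, and Notum and Znrf3 are named only. The TCF motif CTTTGAT, read as ATCAAAG on the other strand, occurred in 1 of the 14 windows, that of Sp5, and in 3.73% of all 32851 windows. The Sp5 window is shown for its match, in capitals, which begins 104 bases before the start. The windows of Axin2, the most used readout of the pathway, and of Tcf7l2, the most abundant of the 10 genes at P12, stand beside it and hold no match. A match describes letters only, and its absence from 300 bases says nothing about binding. The windows lie at chr2:70474673-70474972 for Sp5, chr11:108920099-108920398 for Axin2 and chr19:55741560-55741859 for Tcf7l2, all on the plus strand.
Sp5: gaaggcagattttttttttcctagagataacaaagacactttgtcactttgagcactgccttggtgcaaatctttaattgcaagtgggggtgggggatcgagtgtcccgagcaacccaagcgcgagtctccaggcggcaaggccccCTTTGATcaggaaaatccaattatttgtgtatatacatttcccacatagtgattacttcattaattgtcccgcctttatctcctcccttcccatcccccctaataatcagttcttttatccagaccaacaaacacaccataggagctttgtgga
Axin2: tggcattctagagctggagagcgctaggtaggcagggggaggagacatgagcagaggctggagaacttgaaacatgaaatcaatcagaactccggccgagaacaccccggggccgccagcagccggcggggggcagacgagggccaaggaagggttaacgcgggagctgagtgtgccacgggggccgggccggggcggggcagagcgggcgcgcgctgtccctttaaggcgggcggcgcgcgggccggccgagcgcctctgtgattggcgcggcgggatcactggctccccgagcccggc
Tcf7l2: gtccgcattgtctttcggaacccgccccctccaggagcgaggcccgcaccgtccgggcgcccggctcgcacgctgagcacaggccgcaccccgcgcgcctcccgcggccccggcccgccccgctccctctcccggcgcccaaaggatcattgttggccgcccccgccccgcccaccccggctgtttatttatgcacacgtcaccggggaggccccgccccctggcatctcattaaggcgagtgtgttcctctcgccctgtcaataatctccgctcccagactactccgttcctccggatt

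Counts in gene rows totalled 36252027 to 47084796 per library. Hypoxic libraries held 11695 and 12785 genes with 10 counts or more and normoxic libraries 14129 and 16468, against 17520 to 18318 per embryonic library. Replicates correlated across genes at 0.70 in hypoxia and 0.77 in normoxia, against 0.95 in either embryonic group. Levels are given as CPM, counts per mega-count of a library size scaled by TMM, and as CPM per kb of merged exons where genes are compared with each other. The TMM factors were 0.639 to 0.848 at P12 and 1.32 to 1.38 in the embryo. The limit that a count of 0 allows, 3 counts per library, was 0.0953 to 0.111 CPM at P12 and 0.0482 to 0.0537 CPM in the embryo.

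The labelled cell type was checked against marker genes. Radial glial markers, 9 genes, summed to 4836 to 5072 CPM in hypoxia and 3825 to 4636 CPM in normoxia, against 243 to 255 CPM at E15 and 299 to 324 CPM at E13, and none was at 0 in both libraries of a group. Much of the P12 sum was Slc1a3, with 2412 to 3435 CPM, which the astrocyte list also holds. Of the other 8, Pax6, Sox2, Hes1, Hes5 and Fabp7 were called higher at P12 in both comparisons with the embryo, and Vim, Nes and Hopx in neither. Vim had 140.0 and 22.1 CPM in hypoxia and 102 and 95.9 CPM in normoxia, against 69.5 and 69.2 CPM at E15 and 199.3 and 208 CPM at E13. Astrocyte markers, also 9, summed to 11616 to 13824 CPM in hypoxia and 11197 to 11341 CPM in normoxia, against 20.0 to 37.7 CPM at E15 and 25.5 to 45.7 CPM at E13. All 9 were called higher at P12 in both comparisons with the embryo. Oligodendrocyte progenitor markers, 10 genes, summed to 1202 to 2164 CPM in hypoxia and 436 to 591 CPM in normoxia, against at most 8.36 CPM in the embryo. Neuronal markers, 8 genes, had lower sums at P12, with 267 to 687 CPM in hypoxia and 502 to 539 CPM in normoxia, against 4144 to 4790 CPM in the embryo. Neurod6, which marks cortical excitatory neurons, reached at most 0.296 CPM at P12, against 1454 to 1915 CPM in the embryo. The neuronal genes differed among themselves: in hypoxia against the embryo 5 of 8 were called lower, and in normoxia 4, Tubb3, Dcx, Map2 and Neurod6. The synaptic genes Snap25 and Syt1 were instead above every embryonic library in normoxia, Snap25 with 85.8 and 87.6 CPM against 33.2 to 65.1 CPM in the embryo (edgeR, adjusted p = 0.253) and Syt1 with 130.1 and 58.6 CPM against 0.194 to 14.3 CPM (adjusted p = 0.118). The P12 libraries were thus rich in glial RNA and the embryonic ones in neuronal RNA. In these bulk samples, fewer cells of a type and less RNA per cell cannot be told apart.

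**Figure D1:**
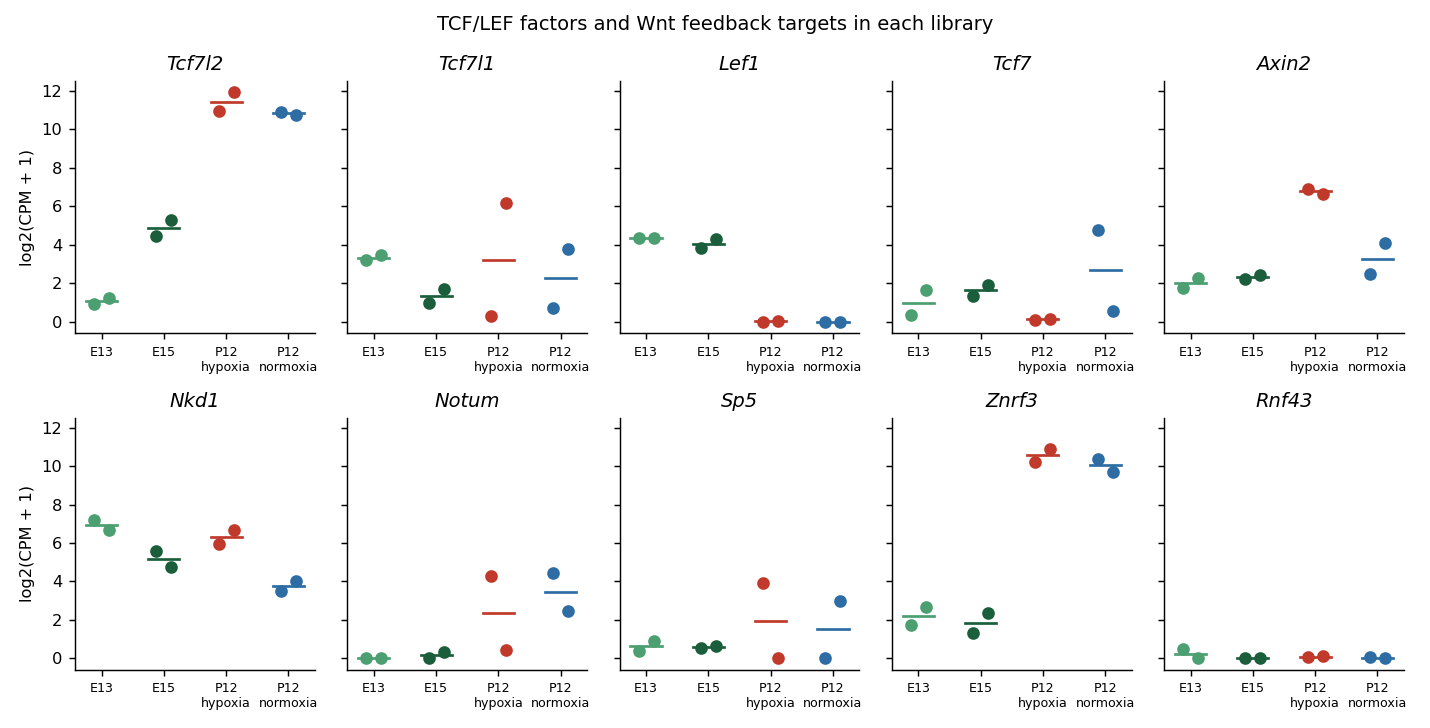
Level of each of the 10 genes as log2(CPM + 1) on the vertical axis, 1 panel per gene, with a point for each library and a line at the mean of the 2 points of a group. Tcf7l2 and Znrf3 lie at 829.9 CPM or more in all 4 P12 libraries and at 37.5 CPM or less in the embryonic ones, whereas Tcf7, Tcf7l1, Notum and Sp5 split the 2 libraries of a P12 group.

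Of the 4 TCF and LEF genes, 2 were called between the embryo and P12. Tcf7l2 was far higher in both P12 groups than in the embryo, Lef1 was present in all 4 embryonic libraries and at 0 or 1 count at P12, and neither Tcf7 nor Tcf7l1 passed the test. Of the 9 Wnt genes tested, 4 were called in hypoxia against the embryo, where 26.1% of all 19936 tested genes were called. These were 3 higher and 1 lower, beside 13.2% higher and 12.9% lower over all genes. Likewise 4 were called in normoxia against the embryo, 2 higher and 2 lower, where 17.8% of all genes were called, 12.1% higher and 5.68% lower. Axin2, Tcf7l2, Notum and Znrf3 were higher in every P12 library than in every embryonic one for either P12 group, as were 21.3% of all genes in hypoxia and 27.3% in normoxia. Lef1 and Tcf7 were lower in this way in hypoxia, as were 36.3% of all genes, and Lef1 and Nkd1 in normoxia, as were 32.1%. Both comparisons share the same 4 embryonic libraries, so their calls are not independent of each other.

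Tcf7l2, also known as Tcf4, lies at chr19:55741820-55933654 on the plus strand. It had 1999 and 3886 CPM in the hypoxic libraries and 1942 and 1728 CPM in the normoxic ones, against 20.5 and 37.5 CPM at E15 and 0.894 and 1.35 CPM at E13. Every P12 library was above every embryonic one, and each E15 library was above each E13 library. Against the mean of E15 and E13, Tcf7l2 rose by 9.01 ± 0.44 on the log2 scale in hypoxia (SE, edgeR quasi-likelihood test, adjusted p = 0.000293) and by 8.33 ± 0.43 in normoxia (adjusted p = 0.000351). It was called in both comparisons under all 14 other settings tried. The SE of every fold change comes from the shared fit of all 8 libraries, 2 per group.

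Lef1, a factor known from cortical and hippocampal progenitors, lies at chr3:131110471-131224356 on the plus strand. It had 0 and 0.0370 CPM in hypoxia, the second value being 1 count, and 0 CPM in both normoxic libraries, against 13.1 and 18.5 CPM at E15 and 19.3 and 19.1 CPM at E13. All 4 P12 libraries were below all 4 embryonic ones. Lef1 fell in normoxia to a level at least 181-fold lower than in the embryo, with 3 counts per library standing for 0 (edgeR, adjusted p = 0.0138). In hypoxia it also fell, and the embryonic level was 993 times that of P12, with a 95% counting interval of 178 to 39245 (adjusted p = 0.0141). Without any 1 of the 4 embryonic libraries the call was lost, with an adjusted p of 0.0757 to 0.0802 in normoxia and 0.0717 to 0.0755 in hypoxia. The hypoxic call was also lost with limma-voom (adjusted p = 0.0527). Exons of the antisense gene Gm43352, which had 24 to 36 counts per embryonic library, cover 13.75% of the Lef1 exons, and whether the counting used strand is not given in the sources used here.

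Tcf7 and Tcf7l1 varied strongly between the libraries of a group. Tcf7, also known as Tcf1 and best known from T cells, lies at chr11:52252371-52283014 on the minus strand. It had 0.0673 and 0.111 CPM in hypoxia and 26.6 and 0.489 CPM in normoxia, against 1.53 and 2.78 CPM at E15 and 0.268 and 2.10 CPM at E13. Normoxic replicate 1 stood alone above all others, and both hypoxic libraries were the lowest of the 8. The log2 difference from the embryo was -4.13 ± 1.95 in hypoxia (edgeR, adjusted p = 0.166) and 3.08 ± 1.47 in normoxia (adjusted p = 0.202), and without normoxic replicate 1 the normoxic difference was -1.85.

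Tcf7l1, also known as Tcf3 and mostly a repressor, lies at chr6:72626378-72789254 on the minus strand. It had 0.202 and 71.5 CPM in hypoxia and 0.635 and 12.9 CPM in normoxia, against 0.951 and 2.19 CPM at E15 and 8.25 and 9.89 CPM at E13. Replicate 2 was the high library in both P12 groups, and the P12 range enclosed the embryonic one. The log2 difference from the embryo was 3.25 ± 1.84 in hypoxia (edgeR, adjusted p = 0.232) and 0.84 ± 1.84 in normoxia (adjusted p = 0.790), and its sign turned when replicate 2 of the P12 group was left out.

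Summed per kb, the 4 factors came to 4.50 and 5.65 CPM per kb in the E13 libraries, 4.65 and 7.99 in the E15 ones, 228 and 461 in P12 hypoxia, and 232 and 200.3 in P12 normoxia. Tcf7l2 made up 2.26% and 2.73% of that sum for E13, 50.3% and 53.4% for E15, 99.97% and 96.0% in P12 hypoxia, and 95.6% and 98.3% in P12 normoxia. The 4 embryonic sums thus lay between 4.50 and 7.99 CPM per kb, with a different makeup at each age. At E13 Lef1 made up 48.8% and 38.4% and Tcf7l1 46.7% and 44.6%. At E15 the Lef1 share was 32.0% and 26.3% and the Tcf7l1 share 5.21% and 6.97%. The Tcf7 share was 2.27% and 14.2% in the E13 libraries and 12.5% and 13.3% in the E15 ones. At P12 a second factor held more than 1% in 3 libraries, namely Tcf7l1 with 3.95% in hypoxic replicate 2, Tcf7 with 4.38% in normoxic replicate 1 and Tcf7l1 with 1.64% in normoxic replicate 2. These shares are descriptions with no test.

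**Figure D2:**
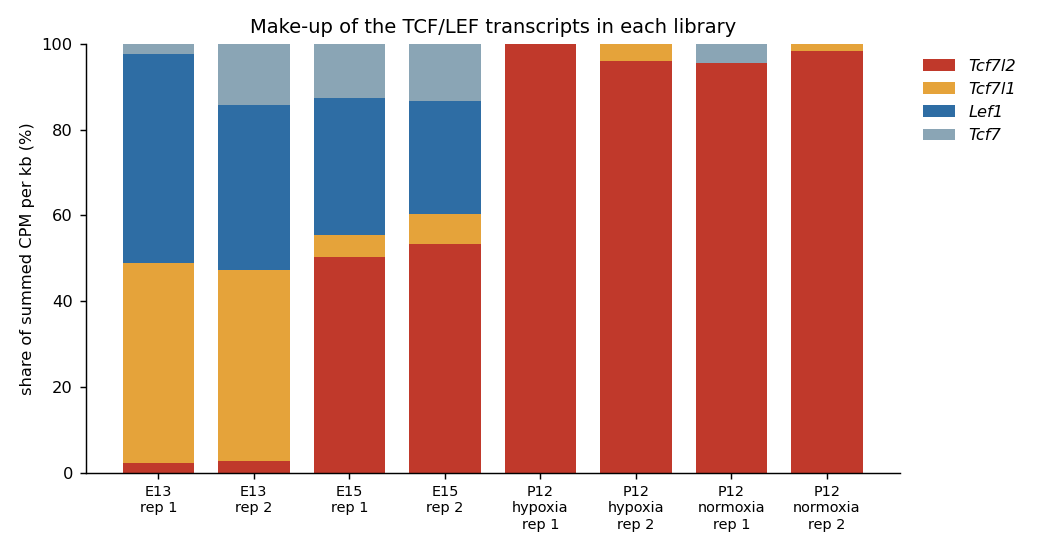
Share of Lef1, Tcf7, Tcf7l1 and Tcf7l2 in their summed CPM per kb, in percent, as stacked bars with 1 bar per library. Tcf7l2 takes 2.26% to 2.73% of the bar at E13, 50.3% to 53.4% at E15 and at least 95.6% in each P12 library.

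Between the 2 embryonic ages the difference in Tcf7l2 was the one of smallest p among the 9 tested genes. It was 4.69 ± 0.51 higher at E15 than at E13 on the log2 scale, with an unadjusted p of 9.04e-05 and an adjusted p of 0.452 (edgeR). With that test, 0 of the 9 Wnt genes were called in E15 against E13, and 0% of all tested genes were. Unadjusted p-values were under 0.05 for 690 genes, Tcf7l2 and Nkd1 among them. DESeq2 called 374 genes, with Tcf7l2 the 1 Wnt gene among them (adjusted p = 4.45e-10), and edgeR on the embryonic libraries alone called 229, again with Tcf7l2 (adjusted p = 0.0433). limma-voom called 935, with Nkd1 (adjusted p = 0.0308) as the 1 Wnt gene. Of the 10 genes, Tcf7l2 lay higher in each E15 library than in each E13 library, as did 23.6% of all tested genes, and Lef1, Tcf7l1 and Nkd1 lay lower, as did 25.8%. Thalamic markers summed to 1042 to 1100 CPM at E15 and 999.2 to 1121 CPM at E13. Of the 6 tested, 1 had a positive and 5 a negative difference, and 0 were called. Lhx2 had 674 and 657 CPM at E15 and 446 and 530 CPM at E13. Lhx9 had 60.0 and 62.8 CPM at E15 and 159 and 199.7 CPM at E13, and Gbx2 was at 0 in all 8 libraries. The part of thalamic cells in the Tcf7l2 values was not tested.

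Axin2 and Nkd1, intracellular brakes on the pathway, followed different courses. Axin2, the inducible scaffold of the destruction complex, was highest in hypoxia and called there against the embryo. Nkd1, which binds Dishevelled, was high at E13 and in hypoxia and low in normoxia. Axin2 lies at chr11:108920349-108950783 on the plus strand and Nkd1 at chr8:88521354-88594884 on the plus strand.

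Axin2 had 118 and 100.2 CPM in hypoxia and 4.64 and 15.8 CPM in normoxia, against 3.58 and 4.44 CPM at E15 and 2.33 and 3.74 CPM at E13. Both hypoxic libraries were above all 6 others, and the normoxic libraries were above the embryonic ones by a narrow margin. Axin2 rose by 4.97 ± 0.64 in hypoxia against the embryo on the log2 scale (edgeR, adjusted p = 0.00454), a call kept under all 14 other settings (highest adjusted p 0.0463). In normoxia against the embryo the difference was 1.55 ± 0.60 (edgeR, adjusted p = 0.135). It was 0.41 without normoxic replicate 2 and 2.04 without normoxic replicate 1, and DESeq2 called it (adjusted p = 0.0281).

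Nkd1 had 61.0 and 100.9 CPM in hypoxia and 10.2 and 15.2 CPM in normoxia, against 46.6 and 25.6 CPM at E15 and 144.8 and 100.1 CPM at E13. The normoxic libraries were the lowest of the 8, and the hypoxic range overlapped that of the embryo. Nkd1 fell by 2.39 ± 0.52 on the log2 scale in normoxia against the embryo (edgeR, adjusted p = 0.0311). That call was lost without either normoxic library or any 1 embryonic library (adjusted p 0.0656 to 0.157) and with limma-voom (0.310). In hypoxia against the embryo the difference was 0.28 ± 0.45 (adjusted p = 0.678), and in E15 against E13 it was -1.76 ± 0.55 (unadjusted p = 0.0180, adjusted p = 1).

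Notum and Sp5, a secreted and a nuclear feedback gene, varied strongly between the libraries of a P12 group. Notum, a secreted enzyme that strips the lipid from Wnt ligands, lies at chr11:120653788-120661175 on the minus strand. It had 18.5 and 0.333 CPM in hypoxia and 21.1 and 4.56 CPM in normoxia, against 0 and 0.273 CPM at E15 and 0 CPM in both E13 libraries. All 4 P12 libraries were above all 4 embryonic ones, though hypoxic replicate 2, with 9 counts, was close to E15 replicate 2, with 17. The test called it in neither comparison with the embryo (edgeR, adjusted p = 0.0568 for hypoxia and 0.0649 for normoxia), while 4 of 14 other settings called it for normoxia and 2 for hypoxia. Exons of the antisense gene Notumos, which had at most 1 count in a library, cover 29.4% of the Notum exons.

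Sp5, a zinc finger repressor that Wnt induces, lies at chr2:70474923-70477729 on the plus strand. It had 14.0 and 0 CPM in hypoxia and 0 and 7.04 CPM in normoxia, against 0.440 and 0.579 CPM at E15 and 0.304 and 0.873 CPM at E13. The 2 libraries with 0 counts were 1 from each P12 group, and the 2 highest values also came from 1 library of each. Its log2 difference between hypoxia and normoxia was 0.99 ± 2.97 (edgeR, adjusted p = 0.975), and it turned negative without hypoxic replicate 1, which leaves 0 counts in hypoxia.

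Znrf3 and Rnf43 are sister ubiquitin ligases of the cell surface that remove Frizzled receptors and are themselves cleared by R-spondins bound to Lgr4, Lgr5 or Lgr6. At P12 Znrf3 and Lgr4 were abundant, while Rnf43 and the R-spondin genes had few counts or none. Znrf3, at chr11:5276324-5444847 on the minus strand, had 1208.5 and 1917 CPM in hypoxia and 1337 and 829.9 CPM in normoxia, against 1.48 and 4.03 CPM at E15 and 2.34 and 5.36 CPM at E13. Every P12 library was above every embryonic one, and the ranges of the P12 groups overlapped. Znrf3 rose by 8.90 ± 0.63 on the log2 scale in hypoxia against the embryo (edgeR, adjusted p = 0.000685) and by 8.37 ± 0.62 in normoxia (adjusted p = 0.000829), and all 14 other settings called both.

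Rnf43, at chr11:87662722-87735539 on the plus strand, had 1 and 2 counts in hypoxia and 1 and 0 in normoxia, against 0 in both E15 libraries and 21 and 0 counts at E13. It was detectable above 3 counts in E13 replicate 1 alone, with 0.376 CPM, and was not tested. Lgr4 had 446 and 890.4 CPM in hypoxia and 750.1 and 367 CPM in normoxia, against 0.370 and 2.76 CPM at E15 and 3.24 and 7.31 CPM at E13. It rose by 7.86 ± 0.93 in hypoxia (edgeR, adjusted p = 0.00331) and by 7.60 ± 0.92 in normoxia (adjusted p = 0.00464) against the embryo. Lgr5 was at 2.05 CPM or less in every library and Lgr6 at 4.89 CPM or less.

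Rspo3, the R-spondin ligand with the most RNA here, had 0 counts in all 4 P12 libraries, against 14.99 and 12.3 CPM at E15 and 46.8 and 94.9 CPM at E13. It fell to at least 399-fold lower in hypoxia (edgeR, adjusted p = 0.00809) and at least 438-fold lower in normoxia (adjusted p = 0.0105) than in the embryo, and both calls were lost without any 1 embryonic library. Rspo2 was likewise at 0 at P12, against 0.595 to 17.0 CPM in the embryo. Rspo4 was at 0 throughout, and Rspo1 was at 0.130 CPM or less at P12 and 1.96 CPM or less in the embryo. Markers of the cortical hem and choroid plexus, a list that holds Rspo1, Rspo2 and Rspo3, summed to 0 to 10.2 CPM in hypoxia and 0 to 19.1 CPM in normoxia, against 20.1 to 22.2 CPM at E15 and 59.7 to 148 CPM at E13. Rspo3 itself made up most of each embryonic sum, so the course of the list is not independent of that of Rspo3. The part of such cells in the Rspo3 values was not tested.

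**Figure D3:**
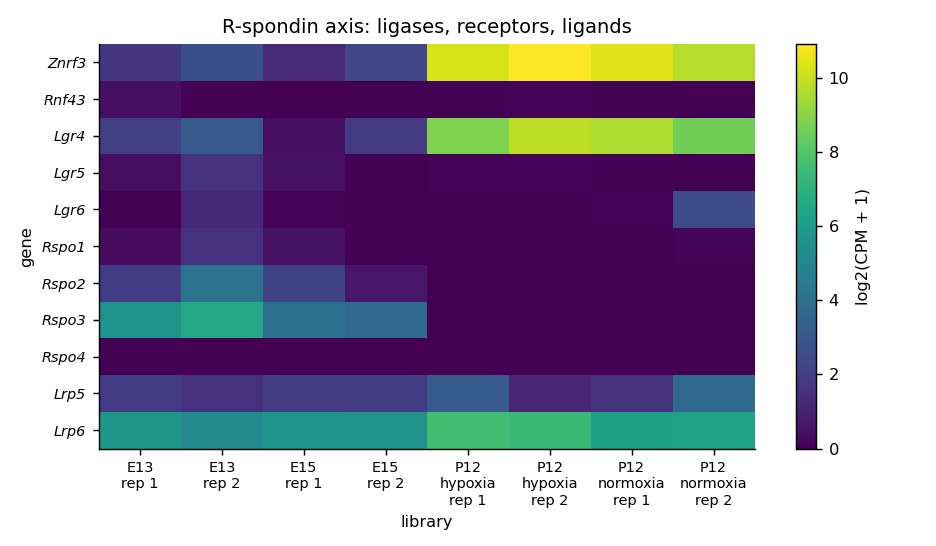
Heat map of log2(CPM + 1), by colour, for Znrf3, Rnf43, the Lgr receptors, the R-spondins, Lrp5 and Lrp6 in rows and the 8 libraries in columns. Znrf3 and Lgr4 lie at 367 CPM or more in all 4 P12 libraries, where Rspo2, Rspo3 and Rspo4 have 0 counts.

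Ranked per kb, the 10 genes stood in a different order at each stage. At E13 Nkd1 led with a mean of 26.9 CPM per kb, followed by Tcf7l1 with 2.31 and Lef1 with 2.18, whose ranges overlapped. At E15 Nkd1 led with 7.92, above Tcf7l2 with 3.31 and Lef1 with 1.80, with no overlap between neighbours. In P12 hypoxia Tcf7l2 with 335 and Znrf3 with 198 overlapped, and both were above Axin2 with 19.8 and Nkd1 with 17.8, which overlapped too. In P12 normoxia Tcf7l2 with 209 was above Znrf3 with 137, and Notum with 5.32, Tcf7 with 5.16, Nkd1 with 2.78 and Axin2 with 1.85 followed, each overlapping the one before it except Notum. Rnf43 and Lef1 were the lowest pair in both P12 groups.

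Glial markers moved with the rise of Tcf7l2 and Znrf3 at P12, and their part in it was not tested. All 10 oligodendrocyte progenitor markers were called higher in hypoxia against the embryo and 9 of 10 in normoxia, with Olig1, Gpr17 and Neu4 at 0 in all embryonic libraries. Maturing oligodendrocyte markers, 9 genes, summed to 1275 to 2183 CPM in hypoxia and 275 to 664 CPM in normoxia, against 24.3 to 31.8 CPM at E15 and 43.8 to 49.0 CPM at E13. Of the endothelial markers, Pecam1, Cldn5, Cdh5, Tek, Emcn and Ly6c1 were at 0 in all 4 P12 libraries, and the sum of all 11 was 321 to 330 CPM in hypoxia and 120.0 to 139 CPM in normoxia, mostly Slco1c1, which astrocytes also express. Mural markers, 7 genes, summed to 1044 to 1279 CPM in hypoxia and 1999 to 2558 CPM in normoxia, against at most 5.81 CPM in the embryo, with Kcnj8, Vtn and Abcc9 at 0 at P12, and Rgs5 made up most of the P12 sum with 1021 to 2501 CPM. Of the microglial markers, C1qa, C1qb and Aif1 were at 0 in all 4 P12 libraries. Intermediate progenitor markers, 5 genes, summed to 4790 to 4955 CPM in hypoxia and 4571 to 6719 CPM in normoxia, against 531 to 1088 CPM in the embryo, but Btg2 alone had 4521 to 6557 CPM at P12. The other 4 had negative differences in both comparisons, with Insm1 and Neurog1 called lower. Among them, Eomes defines these cells and had 12.9 and 77.7 CPM in hypoxia and 22.7 and 63.3 CPM in normoxia, against 157 and 100.96 CPM at E15 and 257 and 267 CPM at E13 (edgeR, adjusted p = 0.128 for hypoxia and 0.146 for normoxia). Thalamic markers, 7 genes, summed to 233 to 616 CPM in hypoxia and 284 to 448 CPM in normoxia, against 999.2 to 1121 CPM in the embryo, and of these genes Rora was called higher and 3 were called lower in both comparisons. Long genes were also called higher at P12 more often. Of the tested genes with over 5.808 kb of exons, 17.1% were called higher in hypoxia and 15.4% in normoxia. Of those with 1.537 kb or less, 8.74% were called higher in hypoxia and 7.92% in normoxia. Calls lower made up 12.1% and 4.74% of the long genes and 11.6% and 5.93% of the short ones, in the same order. Tcf7l2 and Znrf3 belong to the long genes, as does Lef1, which was called lower in both comparisons. The part of exon length in these values was not tested.

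After chronic hypoxia, Axin2 and Nkd1 stood above normoxia in both libraries, Tcf7 stood below it, and none of the 9 tested Wnt genes passed the test. The call rate of all genes in hypoxia against normoxia was 3.02%, with 0.196% higher and 2.82% lower, so 0 of 9 is near the background. Axin2 had 118 and 100.2 CPM in hypoxia, against 4.64 and 15.8 CPM in normoxia, a log2 difference of 3.42 ± 0.80 (edgeR, unadjusted p = 0.00513, adjusted p = 0.0986). Nkd1 had 61.0 and 100.9 CPM in hypoxia, against 10.2 and 15.2 CPM in normoxia, a log2 difference of 2.67 ± 0.56 (unadjusted p = 0.00323, adjusted p = 0.0764). Over the 14 other settings the adjusted p ran from 1.28e-06 to 0.386 for Axin2 and from 9.12e-06 to 0.812 for Nkd1.

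The calls in this comparison turned on the model and on single libraries. DESeq2 called Axin2 (adjusted p = 1.28e-06), Nkd1 (9.12e-06) and Tcf7 (0.00100), while limma-voom called none. edgeR called Nkd1 without hypoxic replicate 1 (adjusted p = 0.0235) and Axin2 without normoxic replicate 2 (0.0460). Tcf7 had a log2 difference of -7.21 ± 2.32 (edgeR, unadjusted p = 0.0211, adjusted p = 0.208), with normoxic replicate 1 as the high library. Unadjusted p-values were under 0.05 for 3 of the 9 Wnt genes and for 3632 of all 19936.

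Tcf7l2 and Znrf3, the abundant pair at P12, did not pass the test between the oxygen groups. The log2 difference was 0.68 ± 0.43 for Tcf7l2 (edgeR, adjusted p = 0.483) and 0.53 ± 0.62 for Znrf3 (adjusted p = 0.777). Leaving out hypoxic replicate 2 gave 0.13 for Tcf7l2 and 0.15 for Znrf3, leaving out hypoxic replicate 1 gave 1.19 for Tcf7l2, and leaving out normoxic replicate 1 gave 1.15 for Znrf3. Both hypoxic values of Tcf7l2, 1999 and 3886 CPM, were above both normoxic ones, 1942 and 1728 CPM, the first by little. Counting Rnf43, with 3 counts against 1, 4 of the 10 genes were higher in both hypoxic libraries, as were 13.1% of all tested genes, and 1 was lower, as were 20.1%. Tcf7l1, Notum and Sp5 overlapped between the groups, with log2 differences of 2.41 ± 2.30, -0.44 ± 2.36 and 0.99 ± 2.97. Lef1 had 1 count in hypoxia, against 0 in normoxia, and no fold is given.

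Markers of other cells also stood apart between the oxygen groups. Oligodendrocyte progenitor markers summed to 1202 to 2164 CPM in hypoxia, against 436 to 591 CPM in normoxia. Of these 10 markers 9 had a positive difference and 0 were called, with a median log2 difference of 1.69. Of the 8 tested maturing oligodendrocyte markers 6 were positive and 0 were called, with Mog at 0 in hypoxia. Cycling markers, 8 genes, summed to 1188 to 1335 CPM in hypoxia and 563 to 645 CPM in normoxia, and 1 of them, the spindle protein gene Nusap1, was called higher. In the embryo the cycling markers summed to 416 to 455 CPM at E15 and 1190 to 1331 CPM at E13. Neuronal markers held the most calls, with 2 of 8 called lower, beside 2.82% of all genes. Their differences were 4 positive and 4 negative, and their sums overlapped, with 267 to 687 CPM in hypoxia and 502 to 539 CPM in normoxia. An unadjusted p under 0.05 was found for 5 of them. Of these, Map2 was higher in hypoxia, with a log2 difference of 1.08 ± 0.39 (edgeR, unadjusted p = 0.0342). Stmn2 fell to 0.101 and 0.0740 CPM in hypoxia, against 29.3 and 40.5 CPM in normoxia, a log2 change of -8.59 ± 0.57 (edgeR, adjusted p = 0.0183). Snap25 fell to 0.605 and 0.333 CPM in hypoxia, against 85.8 and 87.6 CPM in normoxia, a log2 change of -7.52 ± 0.67 (adjusted p = 0.0195). Syt1 had 0 and 0.111 CPM in hypoxia, against 130.1 and 58.6 CPM in normoxia (adjusted p = 0.108). Without any 1 embryonic library no gene at all was called in hypoxia against normoxia, these included. The part of all these cells in the Axin2 and Nkd1 values was not tested.

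**Figure D4:**
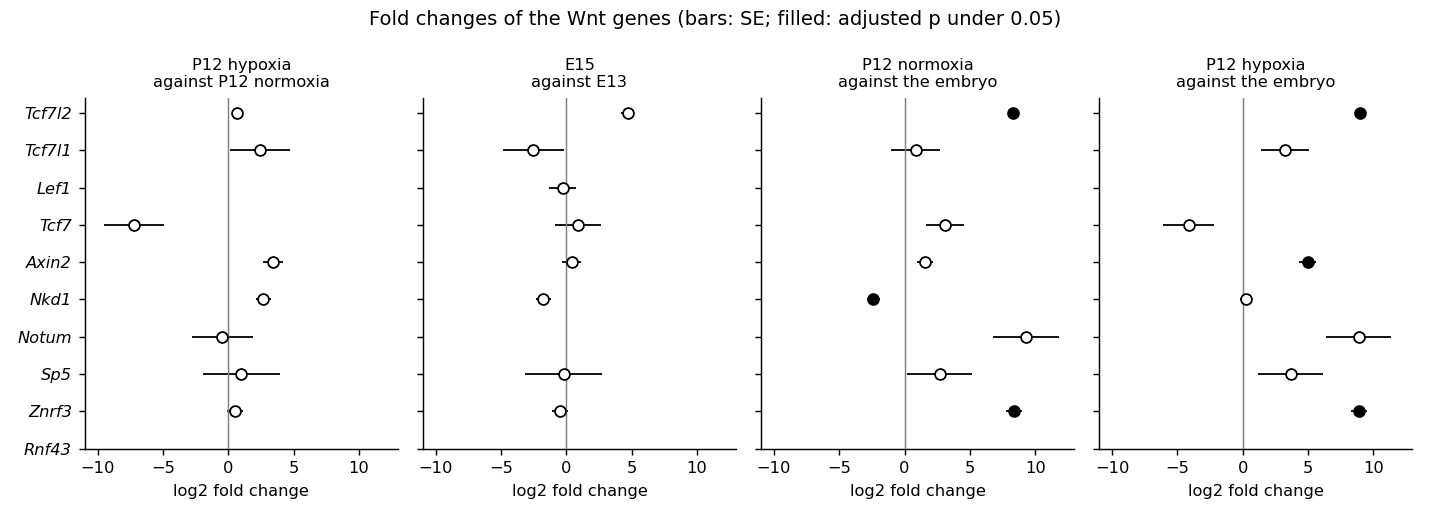
Log2 fold change (points) with its SE (bars) in 1 panel per comparison, filled where the adjusted p is under 0.05, with no point for Rnf43, which was not tested, nor where a side has 0 or 1 count in all (Lef1 at P12, Notum in E15 against E13). Tcf7l2 and Znrf3 lie between 8.33 and 9.01 in both comparisons with the embryo, and no point is filled in hypoxia against normoxia or in E15 against E13.

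The remaining Wnt pathway genes were counted by role, with a median log2 difference over all tested genes of 0 in hypoxia against normoxia, -0.04 in normoxia against the embryo and -0.43 in hypoxia against the embryo. Relative log expression scaling put the last median at -0.22, a shift of 0.21. Of the nuclear partners of beta-catenin and TCF, all 23 tested, 1 was called in hypoxia against normoxia, and it was lower. Over all tested genes 3.02% were called, 2.82% lower. Bcl9l, an adaptor that links beta-catenin to Pygopus, fell to 0.404 and 0.925 CPM in hypoxia, against 20.8 and 27.3 CPM in normoxia, a log2 change of -5.17 ± 0.81 (edgeR, adjusted p = 0.0372). Among the 17 tested receptors and R-spondin genes 1 was called, also lower, with a median of -0.38. Both counts, 1 of 23 and 1 of 17, are near the shares over all genes. Fzd9, a Frizzled receptor, fell to 0.0336 and 0.111 CPM in hypoxia, against 6.57 and 7.04 CPM in normoxia, a log2 change of -6.51 ± 1.06 (adjusted p = 0.0397). Both calls were lost without any 1 embryonic library, with an adjusted p of up to 0.185 for Bcl9l and 0.190 for Fzd9.

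The destruction complex list (14 tested) also holds regulators, among them Dishevelled, which inhibits the complex, and tankyrases, which destabilise Axin. It gave 0 calls in hypoxia against normoxia with edgeR, as did the other Wnt targets (16) and the other Wnt inhibitors (14). In that order, 2, 2 and 3 genes had an unadjusted p under 0.05, beside 3632 of all 19936 tested genes. Among the targets, Bmp4, a growth factor, had 127 and 290.2 CPM in hypoxia, against 26.9 and 20.8 CPM in normoxia, a log2 difference of 3.13 ± 0.98 (edgeR, adjusted p = 0.215). Tnfrsf19 (Troy), a receptor gene, had 417 and 745 CPM in hypoxia, against 322 and 181 CPM in normoxia, a log2 difference of 1.21 ± 0.42 (adjusted p = 0.227). In both, the hypoxic libraries were above the normoxic ones, and of the 16 targets 9 had a positive and 5 a negative difference. The smallest p-values of the inhibitors went the other way. Dact3, which binds Dishevelled, had 0.168 and 0.814 CPM in hypoxia, against 8.57 and 7.76 CPM in normoxia, a log2 difference of -4.05 ± 1.001 (edgeR, adjusted p = 0.117). Sfrp2, a secreted Wnt binder, had 0.101 and 0.148 CPM in hypoxia, against 1.71 and 0.554 CPM in normoxia, a log2 difference of -3.16 ± 1.06 (adjusted p = 0.218). In the destruction complex list Dvl2 had a difference of 2.12 ± 0.71 (edgeR, adjusted p = 0.216) and Axin1 one of -4.52 ± 1.63 (adjusted p = 0.240). In E15 against E13, 0 genes of any of these lists were called.

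Against the embryo, the genes Ctnnb1 and Gsk3b moved in opposite directions. Ctnnb1, the gene of beta-catenin, fell to 344 and 219 CPM in hypoxia and 214 and 161 CPM in normoxia, against 847 and 869 CPM at E15 and 612 and 598 CPM at E13. The log2 change was -1.35 ± 0.26 in hypoxia (edgeR, adjusted p = 0.0158) and -1.94 ± 0.27 in normoxia (adjusted p = 0.00713), the hypoxic call being lost without hypoxic replicate 2 or any 1 embryonic library. Gsk3b, a kinase that marks beta-catenin for degradation, rose by 4.78 ± 0.28 in hypoxia (adjusted p = 0.000422) and by 4.51 ± 0.28 in normoxia (adjusted p = 0.000480). It had 2963 and 5952 CPM in hypoxia and 3881 and 3491 CPM in normoxia, against 174 and 185 CPM at E15 and 156 and 136 CPM at E13. Its relative Gsk3a was instead lower at P12 and not called. The Gsk3a difference was -3.03 ± 1.51 in hypoxia (edgeR, adjusted p = 0.185) and -1.77 ± 1.40 in normoxia (adjusted p = 0.421). Of the 14 genes of the destruction complex and its regulators, 5 were called in hypoxia, where 26.1% of all genes were, namely Gsk3b and the Dishevelled gene Dvl3 higher and Axin1, Apc2 and the tankyrase gene Tnks2 lower. In normoxia 2 of 14 were called, where 17.8% of all genes were, with Gsk3b higher and Tnks2 lower. Axin1, the constitutive relative of Axin2, had 0.404 and 0.962 CPM in hypoxia and 0.699 and 30.7 CPM in normoxia, against 83.1 and 102.8 CPM at E15 and 78.5 and 83.4 CPM at E13. Its log2 change was -6.99 ± 1.79 in hypoxia (edgeR, adjusted p = 0.0369), lost without either hypoxic library or any 1 embryonic library, and the direction was opposite to that of Axin2.

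Of the 23 nuclear partners, 7 were called in hypoxia against the embryo, Ctbp2, Ctnnbip1, Crebbp and Chd8 higher and Ctnnb1, Bcl9l and Smarca4 lower, and 6 in normoxia, the same genes without Bcl9l. The median was -0.72 in hypoxia and -0.49 in normoxia, and 7 of 23 and 6 of 23 stand beside the same shares over all genes, 26.1% in hypoxia and 17.8% in normoxia. Ctbp2, Ctnnbip1 and Chd8 are known as repressors of beta-catenin targets, and Crebbp as a coactivator. Crebbp had 652 and 500.5 CPM in hypoxia and 360 and 686 CPM in normoxia, against 111 and 122 CPM at E15 and 120.3 and 105 CPM at E13, a log2 change of 2.33 ± 0.29 in hypoxia (edgeR, adjusted p = 0.00410) and 2.19 ± 0.29 in normoxia (adjusted p = 0.00653). Besides Lgr4 and Rspo3, the receptor list had Fzd5 and Lrp6 higher and Fzd9 lower in hypoxia, 5 of 17 in all, and Fzd5 higher in normoxia, 3 of 17 in all. Fzd5, at 0 in the embryo, was at least 29.5-fold higher in hypoxia and at least 330-fold higher in normoxia, and the hypoxic call was lost without any 1 embryonic library.

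The other Wnt targets split in both directions, with 8 of 16 called in hypoxia against the embryo and 9 of 16 in normoxia. The shares over all genes were 26.1% in hypoxia and 17.8% in normoxia. Ccnd1, Tnfrsf19, Bmp4, Sp8, Jun and Sox9 were higher in both, Dkk1 and Id2 lower in both, and Apcdd1 lower in normoxia. The list's median was below 0 in both, -0.89 in hypoxia and -1.09 in normoxia. Ccnd1, a cyclin of the G1 phase, had 55.4 and 114 CPM in hypoxia and 154 and 26.0 CPM in normoxia, against 1.004 and 1.16 CPM at E15 and 1.91 and 1.60 CPM at E13. Sox9, a gliogenic factor, rose by 4.65 ± 0.39 in hypoxia (edgeR, adjusted p = 0.00112) and by 4.12 ± 0.38 in normoxia (adjusted p = 0.00180). Of the 14 tested inhibitors, 7 were called in hypoxia and 6 in normoxia, beside the same shares over all genes. Dkk3, Sfrp1 and Sfrp5 were higher in both, with Dkk1, Sfrp2, Sfrp4 and Dact3 lower in hypoxia and Dkk1, Apcdd1 and Sfrp4 lower in normoxia. Dkk3, a secreted protein, rose by 7.11 ± 0.51 in hypoxia (edgeR, adjusted p = 0.000706) and by 6.62 ± 0.50 in normoxia (adjusted p = 0.000874). Some genes stand in more than 1 of these lists, Dkk1 and Apcdd1 among them. Of the list genes called against the embryo, 11 of 31 in hypoxia and 12 of 24 in normoxia were called whichever single library was left out. The others lost their call without at least 1 embryonic library, and some also without a P12 library.

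The genes nearest in pattern were sought among 10887 genes with a mean of at least 5 CPM, by the root mean square difference in centred log2(CPM + 1) over the 8 libraries. Nearest to Axin2 were Arhgef19 at 0.34, Edar at 0.36 and Plppr5 at 0.47. Arhgef19 had 25.4 and 22.9 CPM in hypoxia and 0.318 and 5.38 CPM in normoxia, against 0.564 and 1.04 CPM at E15 and 0.358 and 0.356 CPM at E13. Edar, the ectodysplasin receptor, had 22.8 and 32.0 CPM in hypoxia and 0 and 1.63 CPM in normoxia, against at most 0.498 CPM in an embryonic library. Nearest to Nkd1 were Depdc1b at 0.49, the histone gene Hist1h2ao at 0.56 and Dennd1b at 0.62.

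Nearest to Tcf7l2 were Cdk6, a kinase of the cell cycle, at 0.59, Opcml at 0.77 and Slc1a3, the glutamate transporter of astrocytes and radial glia, at 0.83. Cdk6 had 2349 and 5188 CPM in hypoxia and 4683 and 1471 CPM in normoxia, against 45.0 and 39.4 CPM at E15 and 3.52 and 5.06 CPM at E13. Like Tcf7l2, it was higher in each E15 library than in each E13 library. Such a shared order, as with Notch2 below, goes with the choice by nearness and is no separate result. Nearest to Znrf3 were Notch2, a Notch receptor, at 0.29, Marf1 at 0.39 and Maml2, a Notch coactivator, at 0.41. Notch2 had 927 and 1463 CPM in hypoxia and 1239.9 and 734 CPM in normoxia, against 2.68 and 3.34 CPM at E15 and 2.63 and 4.60 CPM at E13, and its rank order over the P12 libraries was that of Znrf3. Nearest to Lef1 were Wdr92 at 0.11, Prokr2 at 0.12 and Odf2l at 0.14, each at 0.392 CPM or less in every P12 library.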

How the data were processed

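Per the labels, 400 pg of total RNA entered each library, made with the NEBNext Ultra II kit. For each library the authors deposited raw counts, 1 value per gene. Tools named in the submitters' processing notes are cutadapt, STAR and Subread, with GRCm38. Versions, settings, annotation release, strand and multi-mapping are not given in the sources used here. Of 55487 rows per file, 1980 named no gene (0.205% to 0.266% of counts) and were left out, and 14 bore dates in place of symbols. GENCODE M21 symbols matched 96.76% of the 53507 gene rows and gave coordinates and merged exon lengths.

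Counts were tested with edgeR 4.0.16 in R 4.3.3, and with DESeq2 1.42.0 and limma 3.58.1 as alternatives. The limma setting, called limma-voom here, used voom with sample quality weights, so each library had its own weight. filterByExpr (minimum count 10, minimum total 15) kept 19936 genes, libraries were scaled by TMM, and the 4 groups entered 1 quasi-likelihood model of the 8 libraries (4 residual degrees of freedom) with two-sided tests. P-values were adjusted by Benjamini-Hochberg over the 19936 genes at a threshold of 0.05, and the SE was computed from the F statistic. Descriptions used Python 3.11.15, numpy 2.4.6, pandas 2.3.3 and matplotlib 3.10.9. Limits for 0 counts and the 95% intervals (exact binomial) cover counting error only. The method was also run on simulated counts with the same spread in all groups. In these data the P12 replicates correlated less well than the embryonic ones, so that run cannot show how the test performs here.

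The 10 genes and all lists were chosen with earlier results of these data known. Named besides them are the 3 genes nearest in pattern to Axin2 and to each called gene, the called genes of each pathway list (up to 2 of smallest p where none was called), and defining markers beside a result they move with. A planned comparison of the TCF and LEF protein sequences was not made.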

Additional observations from a re-analysis of the deposited data

How the results depend on the processing

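With 2 libraries per group, counts of calls depended on the model and on single libraries. In hypoxia against normoxia, 602 of all genes were called, against 3981 with DESeq2, 0 with limma-voom, 295 with no low-count filter, 0 with only the compared libraries and 0 to 3018 leaving out 1 library. Of the Wnt genes 0 were called, against 3 with DESeq2 and 0 to 1 leaving out 1 library. In E15 against E13, 0 of all genes were called, against 374 with DESeq2, 935 with limma-voom and 229 with only the compared libraries, each with 1 Wnt gene among them, and 0 leaving out 1 library. In normoxia against the embryo, 3541 were called, against 7252 with DESeq2, 6731 with only the compared libraries and 928 to 5990 leaving out 1 library, and the Wnt genes called numbered 4, or 2 to 5 leaving out 1. In hypoxia against the embryo, 5208 were called, against 9001 with DESeq2, 2390 with limma-voom and 1562 to 6836 leaving out 1 library, with 4 Wnt genes, or 3 to 5.

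No sign of pairing by replicate number was seen: deviations from the group means correlated at -0.0385 to 0.00829 over 6 pairs of groups. The labels do not say what the numbers mark, and low correlations cannot show that the libraries are unpaired. With the replicate number as a block, edgeR called 1 gene in hypoxia against normoxia, 1705 in normoxia against the embryo with 3 Wnt genes (Nkd1 at an adjusted p of 0.0795), and 2868 in hypoxia against the embryo. The block turned Tcf7l1 in normoxia against the embryo to -0.66.

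Of 500 values of single Wnt genes under the 14 alternatives, 450 kept their sign and their side of the threshold, 17 lost a call, 16 gained one and 17 changed sign. Limma-voom gave -0.70 for Sp5 and -0.35 for Tcf7l1 in normoxia against the embryo, and -0.15 for Tcf7l1 in hypoxia against the embryo. Leaving out 1 library, log2 differences ran as follows. In hypoxia against normoxia Sp5 ran from -10.22 to 11.32, Notum from -5.16 to 1.17 and Tcf7l1 from -4.93 to 5.81. In E15 against E13 Sp5 ran from -0.77 to 0.74 and Znrf3 from -1.38 to 0.23. In normoxia against the embryo Tcf7 ran from -1.85 to 4.14, Sp5 from -7.65 to 3.54 and Tcf7l1 from -2.57 to 1.63. In hypoxia against the embryo Sp5 ran from -7.67 to 4.65, Nkd1 from -0.14 to 0.61 and Tcf7l1 from -4.22 to 4.25. Leaving out hypoxic replicate 2 for Lef1 in hypoxia against normoxia, and E15 replicate 2 for Notum in E15 against E13, left counts of 0 only and no value. The Sp5 extremes with a P12 library left out are fitted against 0 counts and are no bound. Where a group kept 1 library, it was assumed to vary like the others. The cause of these changes was not tested, and at 0 to 3 counts depth limits Lef1 and Rnf43 at P12 and Tcf7 in hypoxia.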
